A study of Mus musculus with 6 samples.

Results

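The genes described are the semaphorins and their receptors, the plexins and neuropilins. They were chosen by name: each probe set with a single gene symbol in the platform annotation was taken if that symbol began with Sema and a digit, began with Plxn, or was Nrp1 or Nrp2. This gave 79 of the 45101 probe sets on the array and 32 genes: 20 semaphorins, 9 plexins, 2 neuropilins and Plxna4os1, an opposite-strand transcript of the Plxna4 locus whose symbol met the rule. The samples were total RNA of C3H10T1/2, a mouse embryo-derived mesenchymal cell line that can be led to form fat, bone, cartilage or muscle cells. In the BMP4 group, 3 samples came from cells given 50 ng/ml BMP4, a bone morphogenetic protein, while they were dividing. In the control group, 3 samples came from cells grown alongside in the same way but with no BMP4. RNA of both groups was taken past confluence, and each sample was hybridised to its own single-colour array. The labels name no genotype, passage or separate culture for a replicate, so the p-values measure only how much these samples vary, and that variation may be technical.

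Semaphorins are secreted or membrane-bound ligands that share a sema domain, and plexins are their main signalling receptors. Secreted class 3 semaphorins mostly bind a neuropilin, which holds the ligand against an A-type plexin or Plxnd1, whereas membrane-bound semaphorins bind plexins directly. The cytoplasmic part of a plexin acts on small GTPases of the Ras and Rap kind, and the pathway is best known for turning growth cones and migrating cells away from a source. Neuropilins also serve as co-receptors for vascular endothelial growth factors. In mesenchymal and bone tissue, semaphorins are known as signals between bone cells, nerves and vessels.

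On addition of BMP4, the neuropilin Nrp2 rose on each of its 3 measured probe sets, by 1.5-fold to 1.76-fold. In the opposite direction, 11 probe sets of 6 genes fell: the ligands Sema3a, Sema3b, Sema3f, Sema5a and Sema7a, and the receptor Plxna2. Of the 48 probe sets measured, 22.9% passed the test lower and 6.25% higher, against 4.91% and 4.20% of all probe sets tested. The brightest measured probe sets of Sema3a, Sema3f and Plxna2 did not pass. By brightest probe set, 3 of 25 genes were lower and 1 higher, against 5.66% and 5.03% of all genes. Without any single array, 6 or 7 probe sets passed lower. Lower calls over the whole array then fell as well, from 1328 to between 845 and 1063. Among the 11, Sema5a had the smallest adjusted p and fell by 2.34-fold and 2.05-fold, on the same scale, on its pair of bright probe sets. No probe set of Nrp1, of any plexin other than Plxna2, or of class 4 or class 6 semaphorins passed the test. At the shares over all probe sets, groups of this size could well hold no calls, which does not set them apart.

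The starts of 3 of these genes are shown because they are the neuropilin that rose, the plexin that fell and the semaphorin with the smallest adjusted p. Each runs from 250 bases before the RefSeq start to 50 bases after it, 5′ to 3′ on the gene's strand, in build GRCm38.p6. Capitals mark GGGCGG or its reverse complement CCGCCC (the GC box letters bound by Sp1 and its relatives), GGCGCC (a GC-rich SMAD-binding sequence) and GTCTG (an extended form of the SMAD element). The regions are chr1:62703067-62703366 for Nrp2, chr1:194619579-194619878 for Plxna2 and chr15:32244563-32244862 for Sema5a, all on the plus strand.
Nrp2: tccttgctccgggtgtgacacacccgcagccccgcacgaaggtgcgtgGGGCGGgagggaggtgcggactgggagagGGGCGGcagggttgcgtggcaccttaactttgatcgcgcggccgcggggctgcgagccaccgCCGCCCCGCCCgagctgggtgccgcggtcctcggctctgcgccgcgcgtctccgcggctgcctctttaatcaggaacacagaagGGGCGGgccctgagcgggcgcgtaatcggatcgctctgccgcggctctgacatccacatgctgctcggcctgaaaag
Plxna2: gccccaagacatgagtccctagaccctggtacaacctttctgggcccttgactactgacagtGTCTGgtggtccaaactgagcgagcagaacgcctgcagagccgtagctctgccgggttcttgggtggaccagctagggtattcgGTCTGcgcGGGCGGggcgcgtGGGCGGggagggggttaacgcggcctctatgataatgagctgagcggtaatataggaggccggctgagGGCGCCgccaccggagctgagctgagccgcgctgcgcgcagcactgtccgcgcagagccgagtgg
Sema5a: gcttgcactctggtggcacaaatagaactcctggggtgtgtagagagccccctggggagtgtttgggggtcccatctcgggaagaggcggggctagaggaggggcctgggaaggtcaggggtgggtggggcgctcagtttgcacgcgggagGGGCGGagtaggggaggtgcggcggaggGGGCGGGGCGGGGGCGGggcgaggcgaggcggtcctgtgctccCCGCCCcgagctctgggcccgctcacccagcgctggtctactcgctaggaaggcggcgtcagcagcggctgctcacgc
The windows of Nrp2 and Sema5a each held 5 matches to GGGCGG on either strand, of which 1 pair overlapped, and 0 matches to either SMAD sequence. That of Plxna2 held 2 matches to GGGCGG, 1 to GGCGCC and 2 to GTCTG. GC content was 70.7% for Nrp2, 71.3% for Sema5a and 64.7% for Plxna2, against a median of 52.7% over 32851 promoters of the same length. Of all these promoters, 35.7% held GGGCGG, 11.9% held GGCGCC and 49.6% held GTCTG, on either strand. Of 37 promoters found for 26 of the genes described here, 27 (73.0%) held GGGCGG, 6 (16.2%) held GGCGCC and 20 (54.1%) held GTCTG. These shares were not adjusted for GC content. Among other genes that fell, no promoter was found for Sema3b or Sema3f. The window of Sema3a (GC content 41.3%) held 0 matches to any of these sequences. That of Sema7a (67.3%) held 2 matches to GGGCGG, 0 to GGCGCC and 1 to GTCTG. These matches describe letters in a window and do not show that a factor binds there.

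Signals are given on the linear scale of the deposited table, whose 2% trimmed mean was 150 on all 6 arrays. The highest bacterial control signal on any array, 29.1, is used as the level of background. It came from a BMP4 array, and the highest such signal per array was 23.5 to 29.1 with BMP4 and 16.6 to 21.0 without. Median signals over all probe sets were 37.6 to 42.6 on BMP4 arrays and 35.2 to 37.3 on control arrays. Of 9 measured mesenchymal markers, 0 were called by their representing probe sets, whose lowest signal on any array was 428.9, while a second Col3a1 probe set was lower (log2 change -0.45, limma adjusted p = 0.0352). Markers of other cell types were mixed. Pecam1 and Tie1 (endothelium), Ptprc and Aif1 (macrophages) and Tubb3, Snap25 and Elavl3 (neurons) did not exceed background on any array. Above background on all 6 arrays were 1 of 8 endothelial markers (Tek), 4 of 8 macrophage markers (Cd14, Csf1r, Cd68 and Adgre1) and 5 of 9 neural and glial markers (S100b, Map2, Sox10, Mbp and Syt1). The summed signal of the 8 macrophage markers was 492 to 632 with BMP4 and 462 to 471 without, with 0 called. That of the 9 neural and glial markers was 769 to 879 against 524 to 588. Of these, S100b, which cartilage and fat cells also express, was called higher (log2 change 1.29, limma adjusted p = 5.8e-05). That of the 8 endothelial markers was 184 to 355 against 251 to 320, with Tek lower (log2 change -0.69, adjusted p = 0.0167). Their part in the changes of semaphorins and receptors was not tested. In RNA from whole cultures, fewer cells that express a gene and less RNA per cell cannot be told apart.

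Differences were tested with limma on log2(signal + 16) over the 27022 probe sets whose mean lay above the 40th percentile of all probe sets, a signal of 23.5. A change below is a log2 change on this scale, BMP4 minus control, with its 95% interval from limma. Fold changes are on this scale too, so they are smaller than ratios of the linear means. A call means an adjusted p under 0.05 after Benjamini-Hochberg adjustment over all 27022. Of the 79 probe sets, 48 from 25 genes passed this filter: 14 of 20 semaphorins, 9 of 9 plexins and both neuropilins. Called higher were 3 of 48 (6.25%), where 4.20% of all probe sets tested were called higher. Called lower were 11 of 48 (22.9%), where 4.91% of all were called lower. When the kept probe set of highest mean stood for its gene, 1 of 25 genes was called higher (Nrp2), with 5.03% of all genes called so, and 3 were called lower (Sema3b, Sema5a and Sema7a), with 5.66% of all genes called so. Nrp2, Sema3b and Sema5a each had several called probe sets that count as 1 gene here, and Sema3a, Sema3f and Plxna2 each had a brighter probe set that was not called. The median log2 change was -0.07 over the 48 and 0.03 over all probe sets tested. The groups did not overlap in 23 of the 48 probe sets (47.9%), 8 higher and 15 lower with BMP4, where 28.2% of all probe sets tested did not overlap. These counts moved with scaling and with single arrays: with each array centred on its median, 3 were called higher and 13 lower, and the share of higher calls among all calls over the whole array moved from 46.1% to 25.1%. Without the low-signal filter 7 were called lower, and without any single array 6 or 7 were. Lower calls over the whole array also fell, from 1328 of 27022 to 992 of 45037 without the filter. Without any single array they were 845 to 1063 of 27022.

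**Figure D1:**
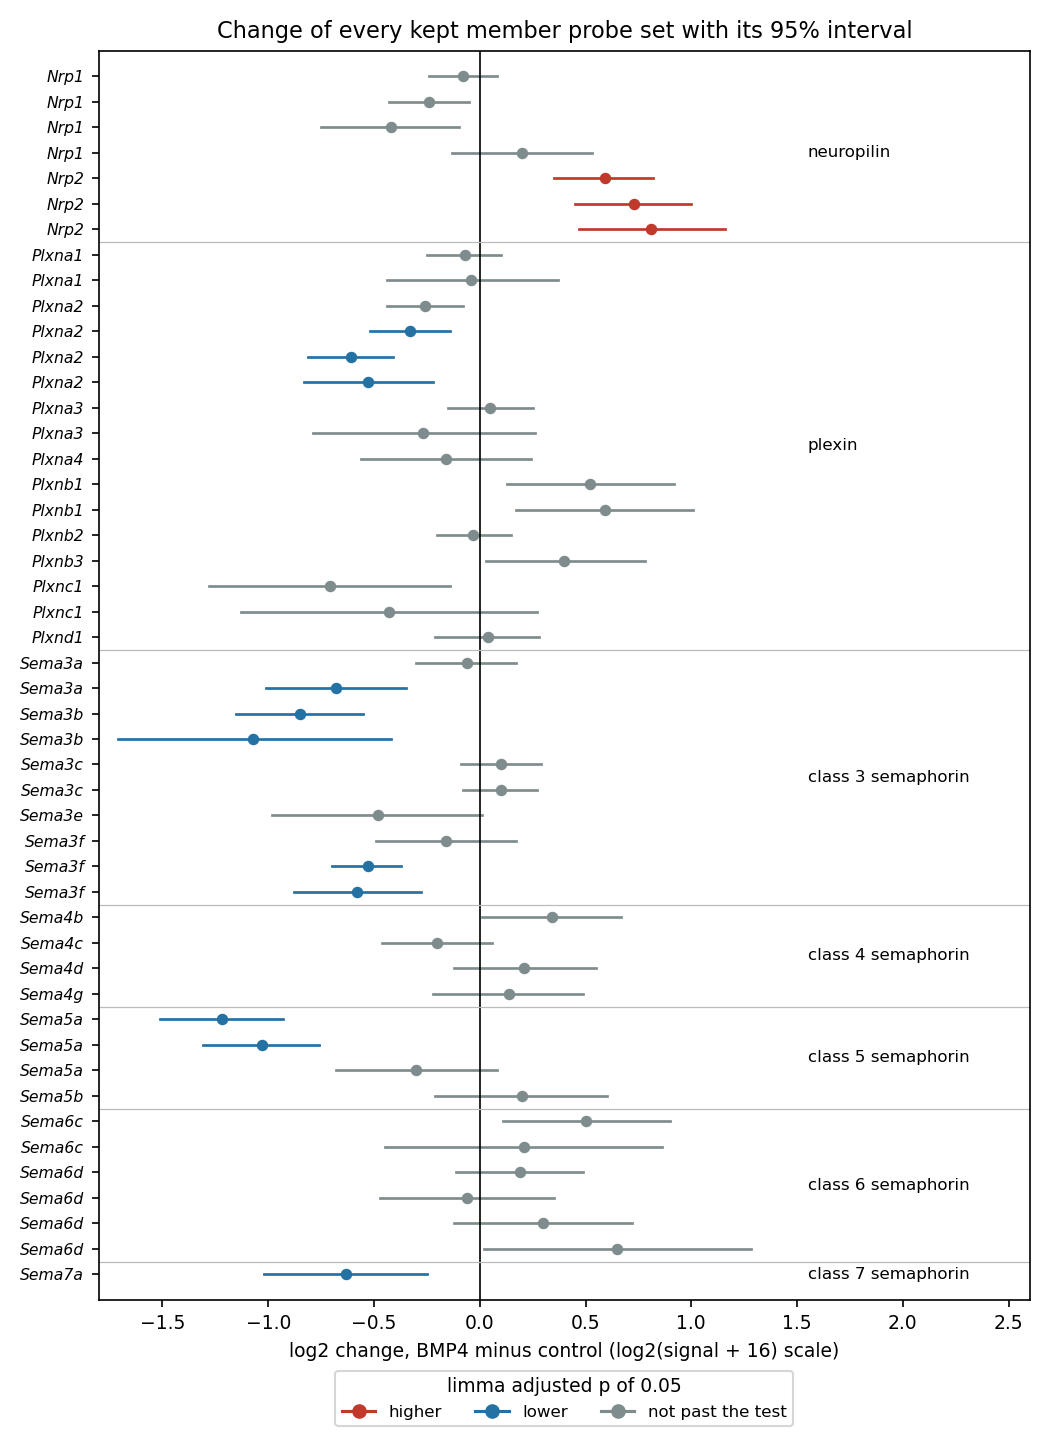
Log2 change with BMP4 (horizontal axis, log2(signal + 16) scale) of the 48 kept probe sets, ordered by family, with points for the estimate and lines for its 95% interval from limma. All 3 Nrp2 probe sets lie to the right of 0, and the called probe sets of Plxna2 and of semaphorin classes 3, 5 and 7 lie to the left.

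Among the receptors, Nrp2 binds Sema3f with preference and also binds VEGF-C. On its brightest probe set (1435349_at) it read 225.6, 226.3 and 281.2 with BMP4 and 149.1, 150.4 and 171.4 without. The lowest BMP4 array lay above the highest control array. The means were 244 ± 31.9 and 157 ± 12.5 (SD, n = 3 each), a log2 change of 0.59 ± 0.11 (SE) with an adjusted p of 0.00588 by limma. The second probe set (1426528_at) read 226.1, 173.1 and 226.4 with BMP4 and 134.2, 116.6 and 107.3 without, again with no overlap. Its log2 change was 0.73 ± 0.13 (SE, adjusted p = 0.0042 by limma). The third (1456778_at) read 146.3, 130.3 and 198.6 against 95.4, 79.0 and 72.5, and here too every BMP4 array was above every control array. Its log2 change was 0.81 ± 0.16 (SE, adjusted p = 0.00779 by limma). The intervals of the 3 changes overlapped, from 0.35 to 0.82, from 0.45 to 1.0 and from 0.47 to 1.16. Another Nrp2 probe set was under the filter. The 3 calls held without any single array and under each alternative normalization tried.

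Nrp1, the neuropilin that Sema3a uses and a co-receptor of VEGF-A, had 4 kept probe sets, of which 0 were called. Its brightest (1448943_at) read 1090.7, 1036.6 and 1219.0 with BMP4 and 1195.4, 1192.6 and 1149.5 without, so the groups overlapped. The log2 change was -0.08, with a 95% interval from -0.24 to 0.08. A second probe set (1418084_at) was lower on each BMP4 array, at 495.3, 468.8 and 478.8 against 654.5, 529.2 and 537.2. Its change of -0.24 had an interval from -0.43 to -0.05 and an adjusted p of 0.122, which was 0.0377 with each array centred on its median. The third (1448944_at) had a change of -0.42 (interval from -0.75 to -0.10), with an adjusted p of 0.112 that was 0.00998 without control array 2. The last (1457198_at) had a change of 0.20 (interval from -0.13 to 0.53). To compare the neuropilins, the difference of log2 changes between the brightest Nrp2 and Nrp1 probe sets was taken array by array. It was 0.67 ± 0.09 (SE) and the groups did not overlap, with an exact two-sided permutation p of 0.1, the smallest that 3 arrays against 3 allow. Over the 6 such comparisons given here, chosen after the values were seen, the adjusted value was 0.2 for Plxna2 against Plxna1 and 0.12 for each of the others. Each of the 6 set the brightest called probe set of a gene against a brightest uncalled probe set. The choice itself thus favoured a difference, so these values do not test whether the changes diverged.

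Plxna2 is an A-type plexin that works with neuropilins for class 3 semaphorins and binds class 6 semaphorins directly. On 1455037_at it read 174.3, 149.8 and 175.0 with BMP4 and 259.1, 259.6 and 267.8 without. The control arrays lay within a narrow band and every BMP4 array was well below it. The means were 166 ± 14.4 and 262 ± 4.89 (SD, n = 3 each), a 1.53-fold fall with a log2 change of -0.61 ± 0.09 (SE) and an adjusted p of 0.00143 by limma. The other called probe sets fell by 0.33 and 0.53 on the log2 scale. On 1451753_at the arrays read 243.3, 214.8 and 208.1 with BMP4 and 287.5, 280.0 and 280.3 without, with no overlap (adjusted p = 0.034). On 1429772_at they read 54.6, 70.6 and 67.5 against 104.0, 92.9 and 100.4, again without overlap (adjusted p = 0.0377). The brightest Plxna2 probe set, 1453286_at, was not called. Its arrays read 391.7, 432.9 and 380.7 with BMP4 and 489.4, 441.5 and 520.7 without, with a change of -0.26 (interval from -0.44 to -0.08, adjusted p = 0.0834). All 4 thus lay in the same direction with no overlap, and the size of the fall differed between probe sets. The call of 1451753_at was lost when any array but BMP4 array 1 was left out (adjusted p of 0.083 to 0.111), and that of 1429772_at when any of the 6 was left out (0.0529 to 0.123). Both were also lost without the low-signal filter (0.0525 and 0.072), and that of 1451753_at with quantile normalization (0.0548), cyclic loess (0.0514) or no intensity trend (0.0966).

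The other 8 plexins had 0 called probe sets, where 4.20% of all probe sets tested were called higher and 4.91% lower. Plxnb1, the receptor of Sema4d, had the largest upward changes among these plexins. It read 112.4, 111.2 and 126.3 with BMP4 against 67.9, 108.3 and 59.1 on 1435255_at. Control array 2 lay close to the BMP4 arrays, and the change was 0.52 (interval from 0.13 to 0.92, adjusted p = 0.105, or 0.0164 without control array 2). Its other probe set read 58.0, 45.5 and 62.9 against 25.0, 41.0 and 29.4, a change of 0.59 (interval from 0.17 to 1.01, adjusted p = 0.0875). Neither pair of groups overlapped. Plxnb3 read 39.8, 41.1 and 44.3 against 25.6, 27.7 and 29.8, close to background in the controls, with a change of 0.40 (interval from 0.03 to 0.78, adjusted p = 0.189). Plxnc1, the receptor of Sema7a, was also near background, at 25.5, 25.3 and 6.2 with BMP4 and 44.6, 37.8 and 35.4 without (change -0.71, interval from -1.28 to -0.14, adjusted p = 0.125). Its second probe set had a change of -0.43 (interval from -1.13 to 0.27). The intervals of the remaining plexins all spanned 0. Plxnb2, the receptor of Sema4c, had means of 1108 and 1126 (change -0.03, interval from -0.20 to 0.15). Plxnd1, the receptor of Sema3e, had a change of 0.04 (interval from -0.21 to 0.28). Plxna1, another partner of neuropilins, had changes of -0.07 (interval from -0.25 to 0.10) and -0.04 (interval from -0.44 to 0.37). Plxna3 had changes of 0.05 (interval from -0.15 to 0.25) and -0.27 (interval from -0.79 to 0.26), and Plxna4 a change of -0.16 (interval from -0.56 to 0.24). The change of 1451753_at of Plxna2 differed from that of the brightest Plxna1 probe set by -0.26 ± 0.13 (SE). The groups overlapped, with an exact permutation p of 0.2, and this pair too was picked by its calls.

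**Figure D2:**
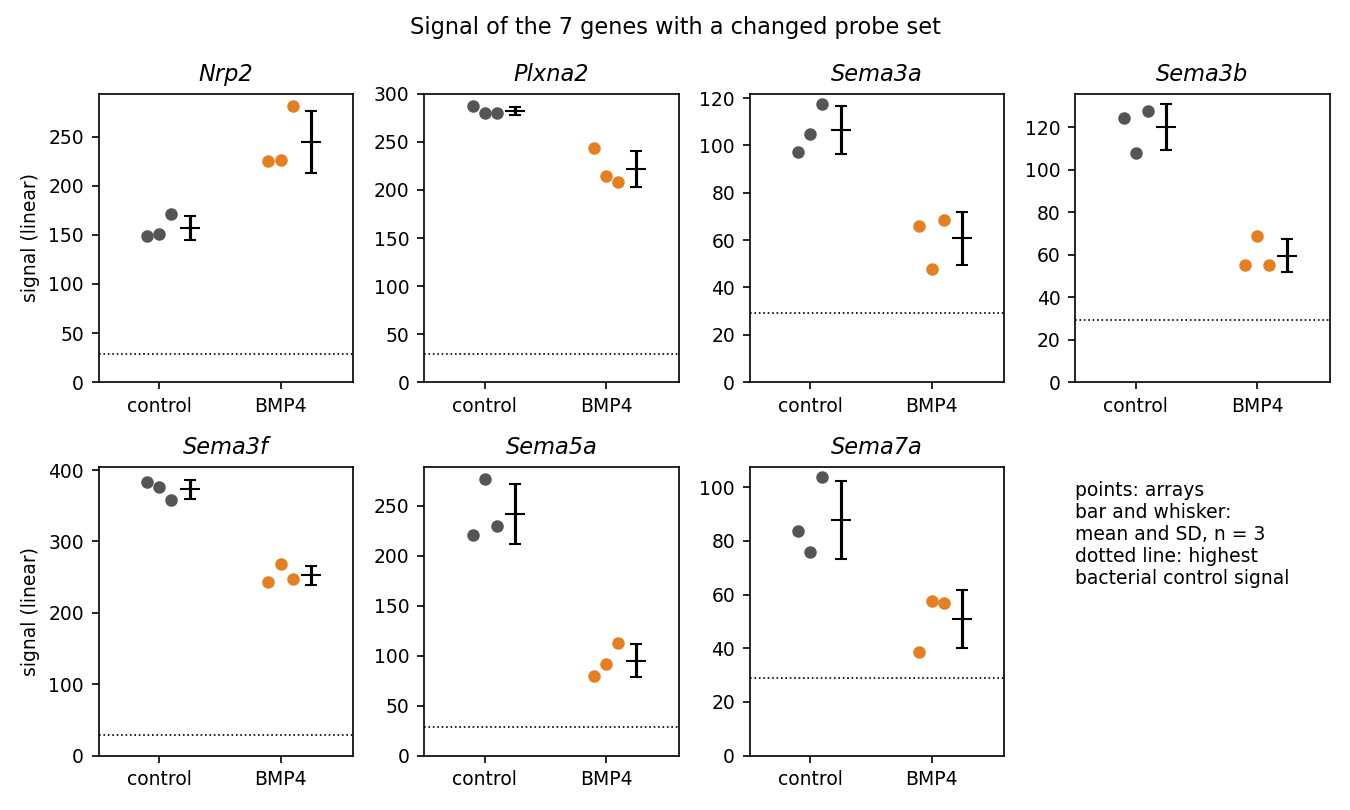
Linear signal (vertical axis, starting at 0) of the brightest called probe set of each of the 7 genes with a call, with a point for each of 3 control and 3 BMP4 arrays, a bar for the mean and whiskers for the SD. The groups do not overlap in any panel, and Nrp2 is the gene whose BMP4 arrays lie above the controls.

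Of the secreted class 3 semaphorins, 5 of 7 genes were measured, on 10 probe sets. Of these, 5 were called lower and 0 higher, against 4.91% and 4.20% of all probe sets tested. Their median log2 change was -0.51 over the 10 probe sets, in which genes with several probe sets weigh more, and -0.16 over the 5 genes by their representing probe sets, of which 1, Sema3b, was called. Sema3f, the repellent ligand of Nrp2, read 242.7, 268.0 and 247.6 with BMP4 and 383.9, 376.8 and 357.6 without on 1425840_a_at. Spread within each group was small against the gap between them. The means were 253 ± 13.4 and 373 ± 13.6 (SD, n = 3 each), a 1.45-fold fall with a log2 change of -0.53 ± 0.08 (SE, adjusted p = 0.00119 by limma). A dimmer Sema3f probe set (1420508_at) read 75.8, 94.7 and 68.2 against 132.1, 130.2 and 116.9, a change of -0.58 (adjusted p = 0.0212) whose call was lost without BMP4 array 1 or 3 or control array 1 or 2 (0.0516 to 0.0835). The brightest, 1438947_x_at, read 652.1, 564.2 and 399.6 against 626.1, 516.5 and 636.4, with overlapping groups and a change of -0.16 (interval from -0.49 to 0.17). Probe sets with the suffix _x_at hold probes that can bind other transcripts, so this value is uncertain as a measure of Sema3f.

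Sema3b, which binds both neuropilins, fell on both of its kept probe sets. On 1448415_a_at it read 55.2, 68.7 and 55.0 with BMP4 and 124.6, 107.9 and 127.9 without. The means were 59.6 ± 7.85 and 120 ± 10.7 (SD, n = 3 each). On the log2(signal + 16) scale the fall was 1.8-fold, a log2 change of -0.85 ± 0.14 (SE, adjusted p = 0.00256 by limma). The other, 1416644_a_at, read 8.2, 38.9 and 35.0 against 76.5, 80.5 and 53.8. No BMP4 array reached the lowest control array, and BMP4 array 1 was below background. The change was -1.07 ± 0.29 (SE, adjusted p = 0.045), a call lost without BMP4 array 1 (0.0602) or without any control array (0.0597 to 0.145). Sema3b and Sema3f lie near each other on chromosome 9, and the RefSeq gene order places 3 genes between them. Of these, Gnai2 had a change of 0.13 (adjusted p = 0.288) and Slc38a3 of 0.74 (adjusted p = 0.325), and Gnat1 was under the filter at 3.0 to 15.5.

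Sema3a, the repellent ligand of Nrp1, gave different values on its kept probe sets. On 1449865_at it read 65.8, 48.0 and 68.7 with BMP4 and 97.4, 104.7 and 117.5 without, with no overlap. The means were 60.8 ± 11.2 and 107 ± 10.2 (SD, n = 3 each), a log2 change of -0.68 ± 0.15 (SE, adjusted p = 0.017 by limma). On the brighter 1420416_at it read 125.4, 130.2 and 115.5 against 135.2, 124.4 and 130.1, and these groups overlapped. Here the change was -0.06, with an interval from -0.30 to 0.17. The changes on the probe sets differed by -0.62 ± 0.19 (SE, exact permutation p = 0.1, the smallest possible). The pair was picked by its calls, so this is not a test of a difference. Which transcripts of Sema3a each probe set detects was not analysed here. The call of 1449865_at was lost without BMP4 array 2 (0.0529), control array 2 (0.0584) or control array 3 (0.073).

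Sema3c, a class 3 ligand that can bind either neuropilin, was not called on either probe set. On 1429348_at it read 883.4, 804.7 and 980.7 with BMP4 and 890.2, 816.2 and 775.8 without, a change of 0.10 (interval from -0.09 to 0.29). Its other probe set gave 0.10 (interval from -0.08 to 0.27). Against the brightest Sema3c probe set, the change of 1425840_a_at of Sema3f differed by -0.63 ± 0.12 (SE). That of 1448415_a_at of Sema3b differed by -0.95 ± 0.18 (SE). Both were without overlap, each with an exact permutation p of 0.1. These pairs too were picked by their calls, so the values are not tests of a difference. Sema3e, which signals through Plxnd1 without a neuropilin, read 32.9, 16.8 and 18.9 against 49.6, 32.4 and 32.1. The change was -0.48 (interval from -0.98 to 0.01, adjusted p = 0.235), near background and with overlapping groups.

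Sema5a is a transmembrane semaphorin with thrombospondin repeats, of the class that binds glycosaminoglycan chains as well as plexins. On 1437422_at it read 79.7, 92.1 and 112.3 with BMP4 and 220.3, 276.2 and 229.5 without. Every BMP4 array was far below every control array. The means were 94.7 ± 16.5 and 242 ± 30.0 (SD, n = 3 each). On the log2(signal + 16) scale the fall was 2.34-fold, a log2 change of -1.22 ± 0.13 (SE, adjusted p = 0.00017 by limma). On 1434776_at it read 69.2, 54.6 and 62.3 against 136.9, 147.4 and 145.5, again with no overlap. The fall was 2.05-fold, a log2 change of -1.03 ± 0.12 (SE, adjusted p = 0.000392 by limma). A dim probe set (1422167_at) read 31.0, 39.5 and 32.3 against 42.0, 43.4 and 52.1 and was not called (change -0.30, interval from -0.68 to 0.08, adjusted p = 0.34). Another was under the filter. Sema5b, the other class 5 gene, read 63.0, 38.8 and 44.9 against 37.9, 38.1 and 44.0, with a change of 0.20 (interval from -0.21 to 0.60). The change of 1437422_at differed from that of Sema5b by -1.42 ± 0.28 (SE), without overlap and with an exact permutation p of 0.1. This pair was likewise picked by its calls, which favoured a difference.

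Sema7a, which is held to the membrane by a lipid anchor and binds Plxnc1 and beta-1 integrins, read 38.6, 57.7 and 56.8 with BMP4 and 83.7, 75.7 and 103.8 without. The groups did not overlap. The means were 51.0 ± 10.8 and 87.7 ± 14.5 (SD, n = 3 each), a log2 change of -0.63 ± 0.17 (SE) with an adjusted p of 0.0448 by limma. This call was lost whichever of the 6 arrays was left out, at adjusted p of 0.0593 to 0.157. Another Sema7a probe set (1422040_at) was under the filter.

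Class 4 and class 6 semaphorins, membrane-bound ligands of B-type and A-type plexins, had 0 of 4 and 0 of 6 kept probe sets called. Their median log2 changes were 0.17 and 0.25. At 4.20% called higher and 4.91% lower over all probe sets, 0 calls among so few do not set these classes apart. Among class 4, Sema4b read 87.9, 80.9 and 108.9 with BMP4 and 76.1, 60.1 and 73.2 without, a change of 0.34 without overlap (interval from 0.01 to 0.67, adjusted p = 0.213). Sema4d, the ligand of Plxnb1, read 55.0, 70.1 and 61.4 against 54.8, 50.3 and 48.7, also without overlap (change 0.21, interval from -0.12 to 0.55). Sema4c had a change of -0.20 (interval from -0.46 to 0.06) and Sema4g of 0.14 (interval from -0.22 to 0.49). Among class 6, Sema6c read 434.5, 307.0 and 249.5 against 220.6, 183.2 and 271.9, with overlapping groups and BMP4 array 1 far above the rest. Its change was 0.50 (interval from 0.11 to 0.90, adjusted p = 0.121). With single arrays left out, it ran from 0.30 without BMP4 array 1 to 0.68 without BMP4 array 3. The adjusted p by limma was then 0.0397 to 0.333, and under 0.05 only without BMP4 array 3. The dimmer Sema6c probe set had a change of 0.21. Sema6d, a ligand of Plxna1, had 4 kept probe sets with changes of 0.19, -0.06, 0.30 and 0.65 and adjusted p from 0.208 to 0.897. An interval that spans 0 or a p that misses the threshold does not show that these genes were alike in both groups, and 3 arrays per group limit what could be seen.

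**Figure D3:**
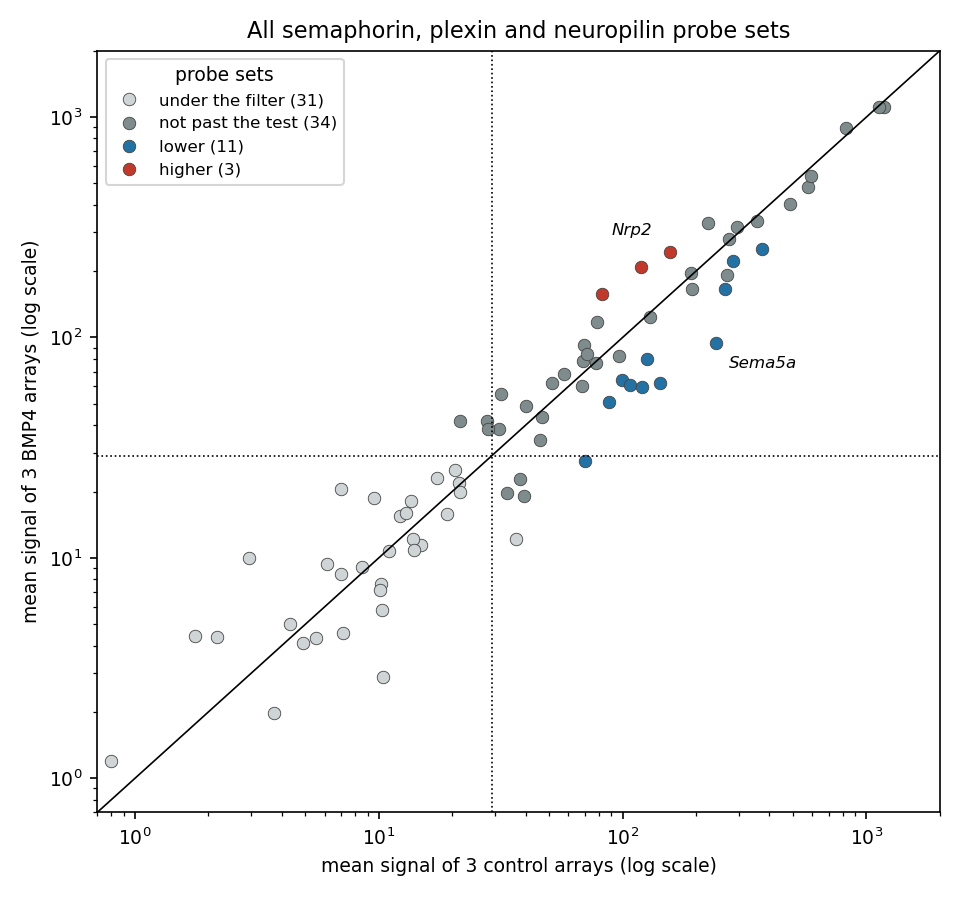
Mean signal of the 3 BMP4 arrays (vertical axis) against that of the 3 control arrays (horizontal axis), both on log scales, for all 79 probe sets, with the dotted lines at the background of 29.1 and the diagonal at equal signal. The 3 Nrp2 points lie above the diagonal, the 11 lower calls below it, and the 31 probe sets under the filter are at the lower left.

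The remaining 31 probe sets were under the filter, and 24 of them were above background on no array. For 7 genes no probe set was kept. Their signals ran from 2.4 to 41.5 for Sema3d, from 4.8 to 26.4 for Sema3g, from 2.9 to 26.7 for Sema4a, from 0.9 to 40.4 for Sema4f, from 2.3 to 28.0 for Sema6a, from 7.1 to 10.8 for Sema6b and from 1.0 to 10.2 for Plxna4os1. Sema3d, a class 3 ligand, had a probe set on which the control arrays were all above background, at 33.8, 34.8 and 41.5, and the BMP4 arrays all below it, at 2.4, 21.1 and 13.1. In a limma fit with no filter its change was -0.96, with an adjusted p of 0.11, the smallest among the 31. In that fit 0 of the 31 were called, and 2 had an unadjusted p under 0.05. These levels show only that the probe sets gave little signal, not that the genes were silent.

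Plexin signals are passed on by small GTPases, kinases and cytoskeletal proteins, and plexins and neuropilins share co-receptors and proteases with other pathways. From 74 such partners listed from general knowledge, 62 were measured, of which 3 were called higher (4.84%, against 5.03% of all genes) and 5 lower (8.06%, against 5.66%). Their median log2 change was 0.00. Among 28 signal carriers, Rnd3 read 1455.9, 1472.3 and 1240.0 with BMP4 and 1982.6, 2135.1 and 2170.0 without. No array overlapped, and its log2 change was -0.59 ± 0.08 (SE, adjusted p = 0.000957 by limma), with -0.59 on a second probe set. Fyn, a kinase that acts downstream of Sema3a, fell by 0.39 on the log2 scale (adjusted p = 0.0153), with -0.22 and an adjusted p of 0.21 on another probe set, and the call was lost without BMP4 array 3 (0.0523), control array 2 (0.0544) or control array 3 (0.0624). Gsk3b, a kinase that phosphorylates CRMP2 in Sema3a signalling, rose by 0.39 (adjusted p = 0.00657), a call lost with each array centred on its median (0.0521). Of 4 other kept Gsk3b probe sets, 2 were called higher (0.37 and 0.73), and those with changes of 0.10 and 0.44 were not called. Of other probe sets of genes not called here, Rras2 (-0.73), Rap1b (-0.40) and Rock1 (-0.52) were called lower, while the brighter probe sets representing these genes were not called.

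Of 9 measured CRMP and MICAL genes, which link plexins to microtubules and actin, Dpysl2 (CRMP2) was called higher. It read 3254.7, 3197.4 and 3046.8 against 2372.6, 2579.6 and 2592.0, a log2 change of 0.33 (adjusted p = 0.016), which was lost with each array centred on its median (0.134) and without BMP4 array 1 (0.0615), BMP4 array 2 (0.0635) or control array 2 (0.0526). A second Dpysl2 probe set had a change of -0.12. Dpysl3 (change -0.08), Crmp1 (0.02) and Mical2 (-0.43, adjusted p = 0.0754) were not called. Among 12 co-receptors, Met, the receptor of hepatocyte growth factor that associates with B-type plexins, read 86.8, 97.6 and 80.8 against 140.0, 134.5 and 144.8. It fell by 0.58 on the log2 scale on this and on a second probe set (adjusted p = 0.00906 and 0.016). Its ligand Hgf fell too, from 808.4, 840.8 and 693.0 on the control arrays to 431.2, 452.6 and 391.4 with BMP4, a log2 change of -0.85 ± 0.09 (SE, adjusted p = 0.000129). Both other kept Hgf probe sets were also called lower (-0.68 and -1.10). Itga1, an integrin subunit that pairs with beta-1 integrin, rose by 0.62 (adjusted p = 0.0267), with 0.33 and an adjusted p of 0.434 on another probe set, and the call was lost when any array but BMP4 array 3 was left out (0.0501 to 0.0897) and without the low-signal filter (0.0665). Plxdc2, a membrane protein with a plexin-like domain, had a change of -0.11 (adjusted p = 0.462).

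Among the vascular endothelial growth factors, which bind neuropilins, 0 genes were called by their representing probe sets. Vegfa had a change of -0.11 (interval from -0.30 to 0.07). A dim probe set of Vegfc, a VEGF that Nrp2 binds, was called lower at -0.82 (adjusted p = 0.0102). The probe set representing Vegfc was not called. Furin, which cleaves class 3 semaphorins, had a change of 0.03 (interval from -0.14 to 0.20). Adamts1, a secreted metalloprotease able to cleave class 3 semaphorins, read 2291.5, 2451.1 and 1968.7 with BMP4 and 4301.9, 4820.1 and 4849.1 without. The groups were far apart, and its log2 change was -1.06 ± 0.09 (SE, adjusted p = 4.8e-05 by limma).

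**Figure D4:**
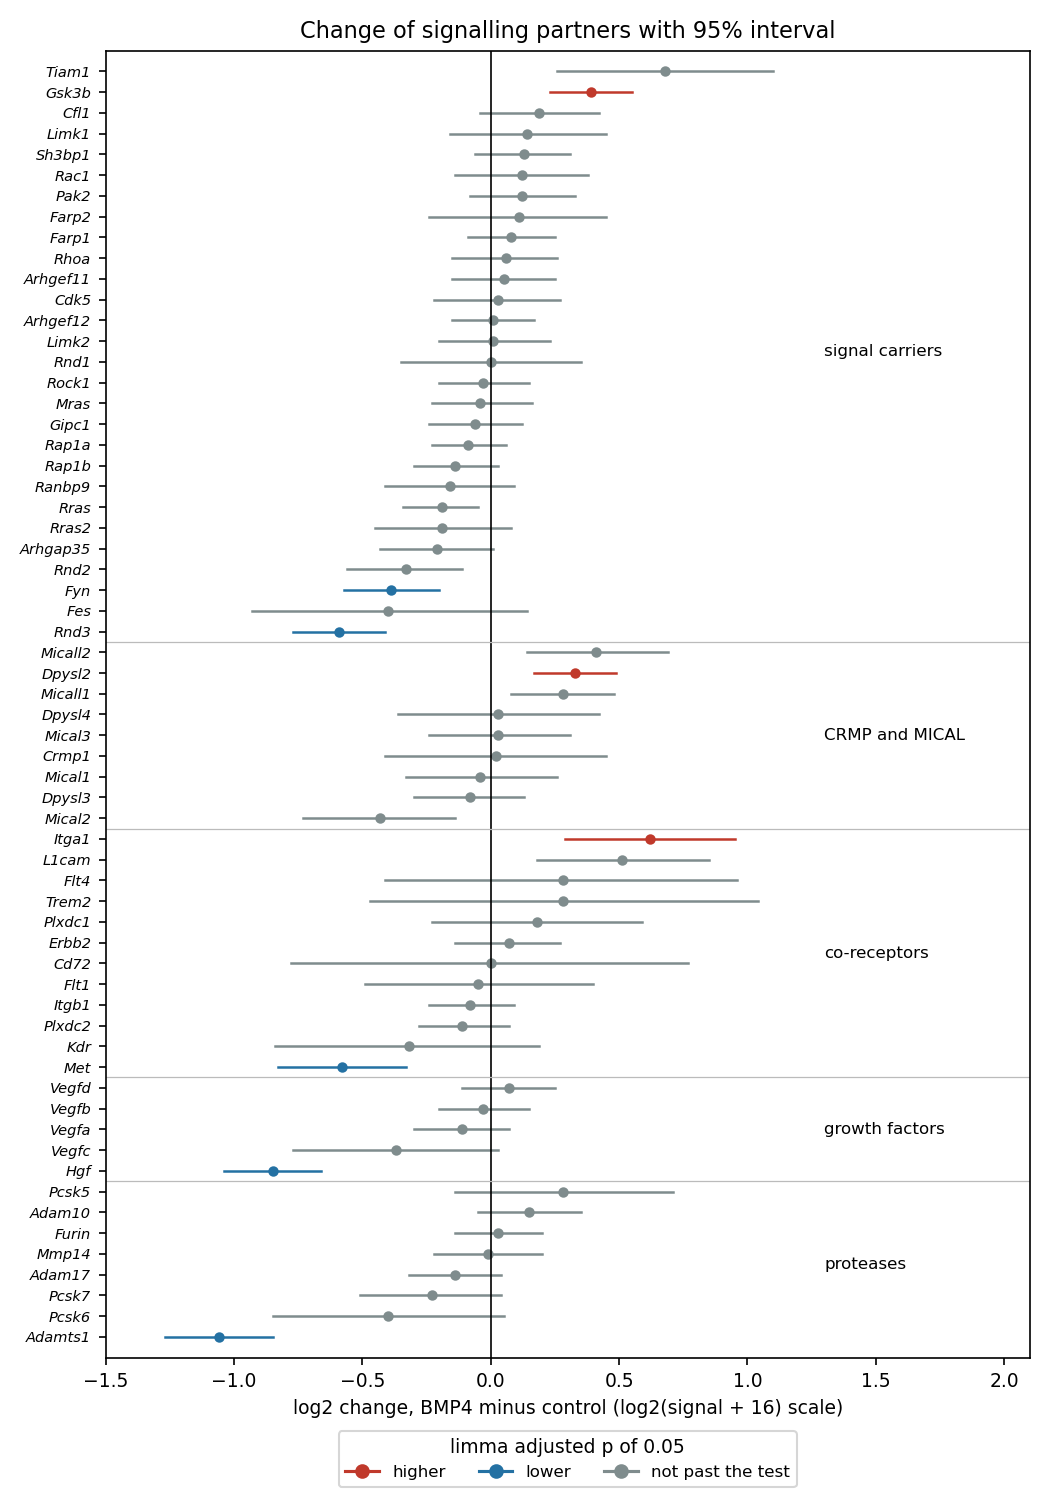
Log2 change with BMP4 (horizontal axis, log2(signal + 16) scale) of the 62 measured signalling partners, each by its probe set of highest mean, grouped by role and with 95% intervals from limma as lines. The 3 higher calls are Gsk3b, Dpysl2 and Itga1, and the 5 lower calls are Rnd3, Fyn, Met, Hgf and Adamts1.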

How the data were processed

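The authors deposited linear signal intensities, 1 value per probe set and array. The submitters' processing notes name GCOS 1.3, and its background correction and scaling are not stated there. On each array the 2% trimmed mean was 150, so no further scaling was applied. Samples were grouped by their titles, 3 per group. After removal of the 64 control probe sets, log2(signal + 16) was taken, and the 27022 probe sets with a mean above the 40th percentile were kept. Fold changes on this scale understate the change of dim genes. Groups were compared by limma 3.58.1 (R 4.3.3), using lmFit and then eBayes with a trend on intensity. Tests were two-sided, with p-values adjusted by Benjamini-Hochberg over every kept probe set and a threshold of 0.05. The procedure was also run on simulated data that gave each probe set the spread usual at its intensity. That run held no spread particular to a probe set, so it does not show how often changes of these sizes are found. Intervals are 95% intervals from limma, and the number of arrays limits their precision.

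The platform annotation gave 34958 probe sets 1 symbol, 932 several and 9211 none. All 79 chosen probe sets matched a RefSeq gene identifier with the same symbol. The chosen genes, partner lists and marker lists were selected with earlier results of these data known. Every chosen probe set past the threshold is named with its arrays, and every other chosen gene by its change or range of signals. From each partner list up to 4 called genes per direction are named, with Vegfa, Met, Dpysl2, Dpysl3, Crmp1, Mical2, Furin and Plxdc2 in any case. Partners named by another probe set than the representing 1 were named after their values were seen. Alternatives were other pseudocounts, filters, normalizations and variance settings, a replicate block, and leaving out each array.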

Additional observations from a re-analysis of the deposited data

How the results depend on the processing

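Under 17 alternatives, 0 of the 14 called probe sets turned in direction, and 8 of the 14 called probe sets stayed past the limma threshold in every alternative that kept them: the 3 of Nrp2, 1455037_at of Plxna2, 1448415_a_at of Sema3b, 1425840_a_at of Sema3f and the bright pair of Sema5a. The count called higher was 3 or 4, also 3 to 4 without any single array. The count called lower, 11, was 7 without a filter and 6 to 7 without any single array. It was 13 with median centring, which moved the median change of all probe sets from 0.03 to -0.07, and 8 without an intensity trend. Lower calls over all probe sets moved too, from 1328 to 992 without a filter and 845 to 1063 without any single array. They were 1890 with median centring and 763 without a trend. Partners called higher, 3, were 1 with median centring, 1 without a trend and 6 with array weights, and 1 to 3 without single arrays (1 without BMP4 array 2). Partners called lower, 5, were 8 with median centring and 4 to 6 without single arrays. With every kept probe set counted as a member in its own right, 3 were higher and 11 lower, against 1 and 3 by gene. The cause of these moves was not tested.

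The replicate block left 8 probe sets called lower and 3 higher, and over all probe sets 1105 lower and 985 higher. The calls lost were those of Sema7a (0.0566) and of 1451753_at (0.055) and 1429772_at (0.0752) of Plxna2. Among partners, Itga1 was lost with it (0.0596). Same-numbered arrays did not deviate together (correlations 0.0102, -0.00261 and -0.0725), so the numbers were not taken as pairs. Sema7a was also lost without a filter (0.105), without a trend (0.0726) and with array weights (0.0577). Of 34 probe sets not called, 6 passed in some alternative. The call of 1416644_a_at of Sema3b was also lost with a pseudocount of 1 (0.0777), without a filter (0.129) and without a trend (0.113). Without a trend the partners Gsk3b (0.0654), Dpysl2 (0.0804) and Fyn (0.0787) were lost. Signal over background limits what the 31 probe sets under the filter can show.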
